A study of Mus musculus with 16 samples.

Results

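Amy1 encodes a mouse alpha-amylase. It was examined in the ventricles of male C57BL/6 mice eating 1 of 4 diets, as 1 of the 17737 genes of the deposited count table. It was picked by its gene symbol because its level is highest on chow, so its chow values are a description and carry no test. The diets were a modified NIA primate formula (mNIA), a UW primate formula, the unmodified NIA primate formula and a standard rodent chow. The modified formula matched the UW formula in sucrose and fat. Animals were 6 weeks old at the start, were assigned at random and ate freely for 6 months. Each diet had 4 animals, and each library came from the lower ventricles of a single animal. No allele or drug differed between the groups. Poly-A RNA with an integrity number above 7.0 was sequenced as stranded, single reads of 75 bases.

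Alpha-amylase cuts the internal alpha-1,4 bonds of starch and glycogen into short chains of glucose. In the mouse, Amy1 is known for its high expression in the parotid gland and is also expressed in liver, whereas the Amy2 genes beside it serve the exocrine pancreas. Amy1 is known to have a strong upstream promoter used in the parotid gland and a weaker downstream promoter used in liver and other tissues. Acid alpha-glucosidase, encoded by Gaa, and the glycogen phosphorylases are the better known routes of glycogen breakdown in heart.

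The Amy1 row of the table (ENSMUSG00000074264.12 in GENCODE vM21) spans chr3:113555952-113577750 on the minus strand of mm10. Its main transcript models, Amy1-201 and Amy1-202, have 11 exons each and differ in the place of the first exon and in the length of the last. They are 1985 and 1771 bases long, both with 1536 coding bases. The RefSeq start sites of the gene lie 2988 bases apart. The promoters at these starts are shown because a count for the whole gene does not tell them apart. Each runs from 250 bases before the start to 50 after it in RefSeq on GRCm38.p6. The upstream window is chr3:113577701-113578000 and the downstream window is chr3:113574713-113575012, both read on the minus strand. Capitals mark TATAAA, searched on both strands.

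Amy1 upstream promoter: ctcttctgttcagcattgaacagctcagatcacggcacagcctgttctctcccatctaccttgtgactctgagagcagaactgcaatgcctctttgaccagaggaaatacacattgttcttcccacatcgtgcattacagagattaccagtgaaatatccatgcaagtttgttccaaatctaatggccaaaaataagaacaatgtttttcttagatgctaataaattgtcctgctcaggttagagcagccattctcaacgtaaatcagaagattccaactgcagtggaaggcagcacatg
Amy1 downstream promoter: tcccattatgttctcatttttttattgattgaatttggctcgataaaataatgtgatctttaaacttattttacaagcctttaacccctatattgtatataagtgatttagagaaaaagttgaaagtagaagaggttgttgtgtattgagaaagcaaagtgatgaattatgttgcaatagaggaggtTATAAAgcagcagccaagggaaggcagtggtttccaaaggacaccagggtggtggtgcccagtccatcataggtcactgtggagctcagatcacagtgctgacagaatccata

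TATAAA occurred 0 times in the upstream window and 1 time in the downstream window, on the gene's own strand, with its first base 63 bases before the start. It occurred on either strand in 4473 of 32851 RefSeq promoters of this length, or 13.6%. Of the possible 75-base reads of Amy1-201, 370 of 1911 (19.4%) do not occur in Amy1-202, and 156 of the 1697 from Amy1-202 (9.19%) do not occur in Amy1-201. The 370 include reads from the longer last exon of Amy1-201, so not all of them mark its start. The table gives 1 value for the gene, so the use of each start was not measured.

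The map of transcript models shows a further model, Amy1-205, that begins 1.63 kb inside the neighbouring Rnpc3, whose end lies 27.3 kb from the Amy1 row. Rnpc3 encodes a protein of the minor spliceosome and lies on the same strand. Levels are in CPM, a gene's count relative to the total count of its library, scaled by the trimmed mean of M-values (TMM), which sets libraries to a common level over most genes. Rnpc3 averaged 18.2 ± 3.19 CPM on mNIA, 18.4 ± 5.05 on UW, 20.7 ± 7.59 on NIA and 15.1 ± 4.11 on chow (SD, n = 4 each). Its means therefore did not follow those of Amy1, with the lowest on chow. The log2 difference of Rnpc3 was 0.34 ± 0.22 (SE) for the mean of the 3 formulas against chow, with an adjusted p of 0.938 by edgeR with Benjamini-Hochberg adjustment. In the pairs of formulas its adjusted p was 0.99999 for mNIA against UW, 0.816 for UW against NIA and 0.875 for mNIA against NIA. The other neighbours by position were Col11a1, a collagen chain gene with 10 counts in all libraries together, and S1pr1, a sphingosine-1-phosphate receptor gene. S1pr1 differed by 0.42 ± 0.25 on the log2 scale between the mean of the 3 formulas and chow, with an edgeR adjusted p of 0.938.

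**Figure D1:**
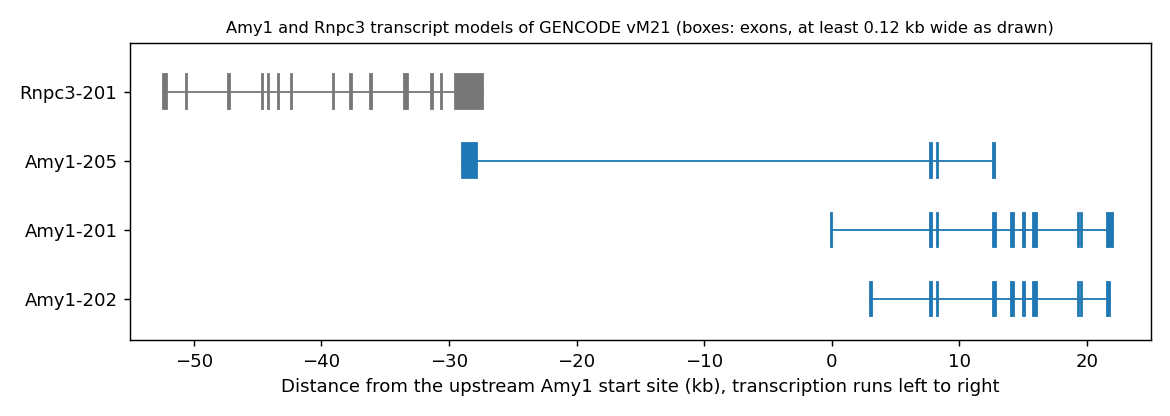
Transcript models of Amy1 and Rnpc3 in GENCODE vM21, drawn by distance in kb from the upstream Amy1 start site, with boxes for exons and lines for introns. Amy1-201 and Amy1-202 differ in their first exon, and Amy1-205 begins inside Rnpc3.

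The Amy2a genes lie on the same strand and could exchange reads with Amy1. The table holds Amy2a2, Amy2a3 and Amy2a4, whose 3 rows carry identical values and the shared span chr3:113279837-113356658, and whose transcripts are identical in GENCODE vM21. Their coding sequence was 89.9% identical to that of Amy1, with 154 mismatches over 1527 aligned bases and 9 gap bases. Amy2a5 gave the same figures but had no row of its own, so its expression was not examined. The 75-base windows of the alignment with the fewest and the most differences are shown, because a read has this length. Capitals mark the bases that differ. The closest window covers coding bases 533 to 607 of Amy1 and 524 to 598 of Amy2a5, with 1 difference. The most distant covers coding bases 354 to 428 of both genes, with 19 differences.

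Amy1, closest window: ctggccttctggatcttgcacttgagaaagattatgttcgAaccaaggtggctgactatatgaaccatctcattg
Amy2a5, closest window: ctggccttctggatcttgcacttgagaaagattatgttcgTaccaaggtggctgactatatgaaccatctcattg
Amy1, most distant window: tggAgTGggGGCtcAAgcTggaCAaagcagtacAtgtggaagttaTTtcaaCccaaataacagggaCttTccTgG
Amy2a5, most distant window: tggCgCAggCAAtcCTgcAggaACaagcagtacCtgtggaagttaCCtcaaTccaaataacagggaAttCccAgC

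The longest identical run in the coding alignment was 73 bases, shorter than a read. Of the 1911 and 1697 possible reads of Amy1-201 and Amy1-202, 0 matched a transcript of another gene exactly. A read with a sequencing error in the closest window could still be placed on either gene. The counts of the Amy2a rows were low. Summed over the 3 rows they were 1.40% to 8.61% of all amylase counts of a library on mNIA, 5.15% to 12.4% on UW, 0% to 8.96% on NIA and 3.199% to 9.68% on chow. These shares overlapped between all diets. Each row summed to 105.5 expected counts over all 16 libraries and was below the filter for testing, so no difference of Amy2a was tested.

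Amy1 was measured in every library. The rounded counts were 71, 92, 138 and 174 in mNIA replicates 1 to 4, 99, 92, 121 and 139 in UW replicates, 67, 1720, 141 and 40 in NIA replicates, and 184, 177, 168 and 179 in chow replicates. The count of 1720 came from NIA replicate 2, a library of 63005361 counts, and the other 15 libraries held 2278223 to 6583503. NIA replicate 4 had the lowest total.

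Per animal, Amy1 was at 20.04, 22.4, 21.5 and 26.5 CPM on mNIA. On UW it was at 13.3, 18.7, 23.6 and 20.6 CPM, and on NIA at 28.1, 23.3, 23.6 and 28.4 CPM. On chow it was at 35.9, 28.4, 33.0 and 30.2 CPM. Every mNIA and UW animal lay below every chow animal. NIA replicate 4 lay at 28.45 CPM, just above chow replicate 2 at 28.42 CPM, so 11 of the 12 formula-fed animals lay below the lowest chow animal. Among the 13381 genes tested, every animal lay below every chow animal for 1.26% on mNIA, 2.48% on UW and 1.91% on NIA. The choice of the gene used these chow values, so nothing is read from these shares.

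The means were 22.6 ± 2.79 CPM on mNIA, 19.0 ± 4.34 on UW, 25.9 ± 2.78 on NIA and 31.9 ± 3.27 on chow (SD, n = 4 each). The order of the means was UW, mNIA, NIA and chow from low to high. The animals of neighbouring diets in that order overlapped: UW with mNIA, mNIA with NIA, and NIA with chow by the single pair above. As a description with no test, the mean of the 3 formulas was 0.699 times the chow level, a log2 difference of −0.52 ± 0.14 (SE). By diet against chow, the log2 differences were −0.49 ± 0.18 (SE) for mNIA, −0.75 ± 0.18 for UW and −0.32 ± 0.18 for NIA. In bulk tissue, fewer cells that express Amy1 and less Amy1 RNA per cell cannot be told apart.

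**Figure D2:**
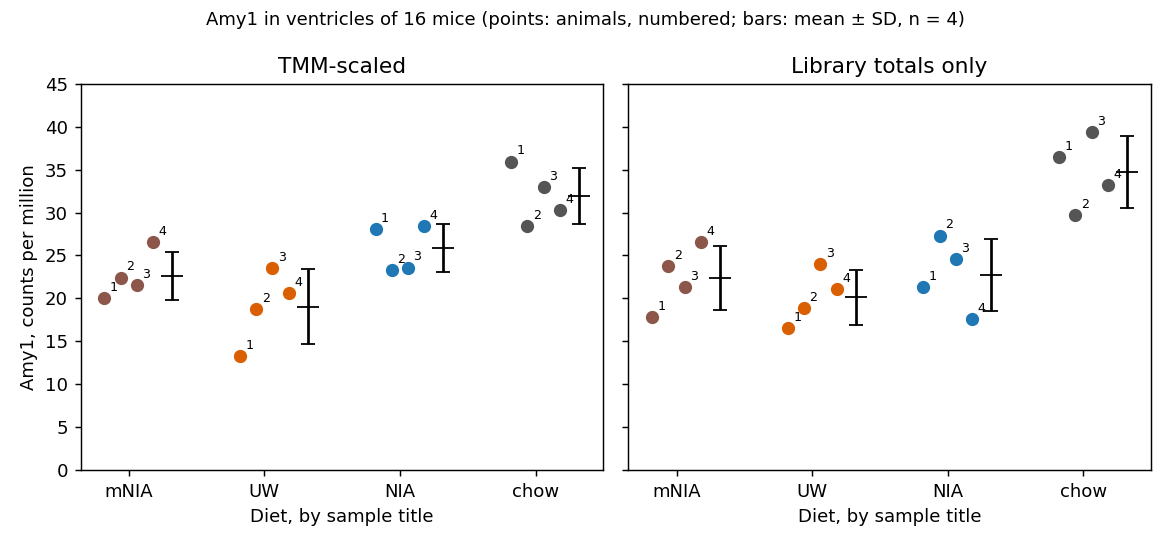
Amy1 in CPM for each of the 16 animals by diet, with TMM scaling (left) and with library totals alone (right); points are animals numbered by replicate, and bars are means ± SD of 4 animals. On the left 1 NIA animal reaches the lowest chow animal, and on the right the 4 chow animals lie above the other 12.

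The choice of Amy1 did not use the pairs of formulas, which were tested. Between mNIA and UW, which share their sucrose and fat levels by design, Amy1 differed by 0.26 ± 0.18 (SE) on the log2 scale, with a 95% interval of −0.13 to 0.64. The edgeR p was 0.182 and the adjusted p 0.99999 over all genes tested, with Benjamini-Hochberg adjustment here and below. Between UW and NIA the difference was −0.43 ± 0.19, a level 0.743 times that of NIA, with a 95% interval of −0.82 to −0.04. Its edgeR p was 0.0339, and it did not pass after adjustment (adjusted p = 0.309). Between mNIA and NIA it was −0.17 ± 0.19, with a 95% interval of −0.56 to 0.22, an edgeR p of 0.369 and an adjusted p of 0.830. The intervals leave room for a fold of up to 1.56 in the pair mNIA against UW, so a failed test does not show equal levels.

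The animals overlapped in all 3 pairs. Over all tested genes, the animals of the 2 diets did not overlap, in either direction, for 1.43% of genes between mNIA and UW, 6.35% between UW and NIA and 2.35% between mNIA and NIA. An exact 2-sided permutation test over animals on log2 CPM gave p = 0.257 for mNIA against UW, 0.0571 for UW against NIA and 0.143 for mNIA against NIA. Adjusted over the 3 pairs these exact p-values were 0.257, 0.171 and 0.214 in the same order. The smallest p that 4 against 4 animals can give is 0.0286. Without UW replicate 1, the lowest animal of all, the UW against NIA difference was −0.28 (edgeR adjusted p = 0.520).

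The assignment of the 3 formulas follows the sample titles. The library codes do not spell the titled diets: NIA libraries carry MNC, UW libraries NC, mNIA libraries UC and chow libraries CC. An exchange of labels among the formulas would assign to different formulas the values and means per formula, their order, the differences of single formulas from chow and the pairs of formulas. The mean of the 3 formulas against chow does not depend on that.

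Amy1 varied little within a diet for a gene of its level. Its standard deviation within diets was 0.22 on the log2 scale, against a median of 0.35 over the 2695 genes within 0.5 of its mean log2 CPM, and 86.1% of those genes varied more. Its biological coefficient of variation in the edgeR model was 0.173, against a median of 0.251. Counting error alone gave a 95% Poisson interval of 20.3 to 38.7 CPM for NIA replicate 4 and 22.2 to 24.5 CPM for the deep NIA replicate 2. The same interval was 10.8 to 16.1 CPM for UW replicate 1 and 24.4 to 32.9 CPM for chow replicate 2. Counting error in NIA replicate 4 therefore spans the gap to every NIA and chow animal. Per kilobase of its longest transcript, Amy1 stood at 12.5 CPM on average, above 70.8% of the 13260 tested genes with a known length.

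The level of Amy1 on NIA depends on how libraries are scaled. With library totals alone, Amy1 averaged 22.4 ± 3.71 CPM on mNIA, 20.1 ± 3.17 on UW, 22.7 ± 4.21 on NIA and 34.7 ± 4.16 on chow (SD, n = 4 each). On that scale the 12 formula-fed animals lay between 16.6 and 27.3 CPM, all below the chow animals at 29.7 to 39.4 CPM. The NIA against chow difference was then −0.60 on the log2 scale, and the UW against NIA difference −0.19 with an edgeR adjusted p of 0.678. The scaling factors were 0.759 in NIA replicate 1 and 0.618 in NIA replicate 4, the lowest of the 16.

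These same NIA libraries stand apart in make-up. The share of counts on genes with a run of at least 25 A or T bases in a transcript was 24.1% in NIA replicate 1 and 26.6% in NIA replicate 4, whereas the other 14 libraries ranged from 6.10% to 14.2%. They are also the NIA libraries with the higher scaled Amy1. Amy1 transcripts hold 0 such runs. Without both libraries the UW against NIA difference was −0.28 (edgeR adjusted p = 0.475) and the mNIA against NIA difference −0.05 (edgeR adjusted p = 0.909). The part of this library make-up in the Amy1 level was not tested otherwise.

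**Figure D3:**
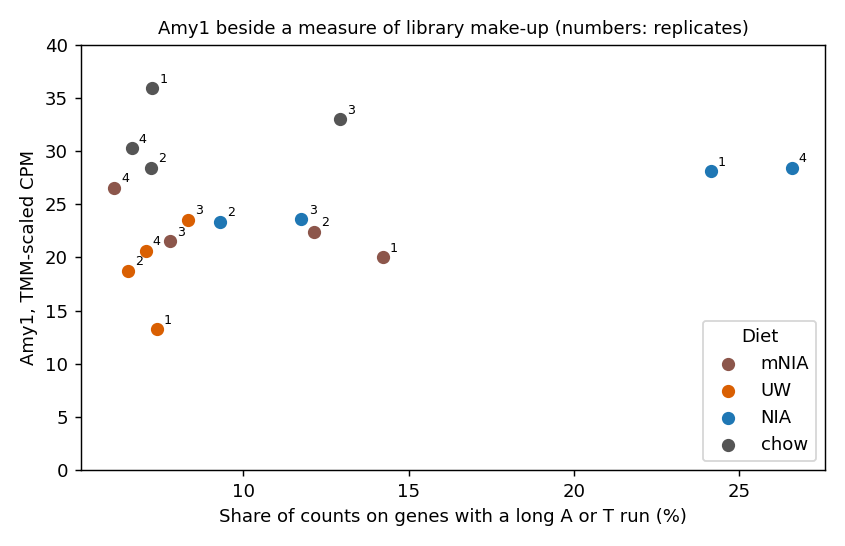
TMM-scaled Amy1 in CPM against the percentage of a library's counts on genes with a long A or T run; each point is 1 animal, coloured by diet and numbered by replicate. NIA replicates 1 and 4 lie apart at 24.1% and 26.6%, at 28.1 and 28.4 CPM of Amy1.

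Markers of heart, gland and liver cells were read beside Amy1. All 12 cardiomyocyte markers were present, with summed levels of 80878 to 119609 CPM on mNIA, 65625 to 99384 on UW, 63669 to 149808 on NIA and 69164 to 101011 on chow. Of 29 markers of pancreatic acinar cells, 6 had a row, and their sum was 1.25 to 1.98 CPM on mNIA, 1.19 to 4.87 on UW, 0.837 to 1.72 on NIA and 0.642 to 2.75 on chow. Of 16 hepatocyte markers, 11 had a row, at sums of 9.31 to 16.7 CPM on mNIA, 10.02 to 19.4 on UW, 9.25 to 16.8 on NIA and 9.56 to 19.4 on chow.

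Of the 18 salivary gland markers used here, 3 had a row: Muc19, Dnase1 and Egf, of which Egf is also made by many other tissues. Muc19, a salivary mucin, was at 0 CPM in every mNIA library and at most 0.268 CPM on UW, 0.502 on NIA and 0.393 on chow. Egf, an epidermal growth factor, was at 3.41 to 10.8 CPM on mNIA, 3.35 to 9.01 on UW, 1.42 to 7.13 on NIA and 4.91 to 11.3 on chow. The sum of the 3 rows was 5.61 to 12.5 CPM on mNIA, 4.42 to 10.05 on UW, 2.13 to 8.81 on NIA and 7.07 to 13.5 on chow, with overlap between all diets. Its part in the Amy1 level was not tested. The skeletal muscle sum on mNIA, at 248 to 398 CPM, lay above that on NIA, at 152 to 214 CPM, and above that on chow, at 182 to 229 CPM, with no overlap. Its part in the Amy1 level was not tested. On UW this sum was 182 to 398 CPM. The sums of the other 12 marker lists overlapped between each formula and chow.

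Amylase acts on glycogen as well as starch, so the genes of both were set beside it. The lists held 53 tested genes without Amy1. By edgeR, 0 of the 53 passed an adjusted p of 0.05 in mNIA against UW, UW against NIA, mNIA against NIA or the 3 formulas against chow. The background was the same, with 0% of all 13381 genes called in each of these comparisons. At an unadjusted edgeR p under 0.05, the members numbered 1 for mNIA against UW, 6 for UW against NIA, 5 for mNIA against NIA and 1 for the formulas against chow. Over all genes those counts were 132, 1858, 1192 and 293 in the same order. DESeq2 called 1 member in UW against NIA, where it called 3.36% of the 9740 genes given an adjusted p. It called 0 members in the other 3 comparisons. The background was 0.00748% of 13371 such genes for mNIA against UW and 0% of 13371 for the formulas against chow. For mNIA against NIA it was 0% of only 1444 genes, and how many members were among these was not counted. Limma with voom and sample weights called 8 of the 53 in UW against NIA, where it called 7.13% of all genes, and 13 of the 53 in mNIA against NIA, where it called 15% of all genes. It called 0 members for mNIA against UW, with 0.00747% of all genes, and 0 for the formulas against chow, with 0.0299%.

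The median log2 difference of the 53 genes was 0.07 for mNIA against UW, 0.17 for UW against NIA, 0.20 for mNIA against NIA and 0.03 for the formulas against chow. Over all genes tested the medians were 0.02, −0.00, −0.01 and 0.00 in the same order. UW against NIA was positive for 39 of the 53 genes and 49.7% of all genes tested, whereas Amy1 was negative in that comparison. The formulas against chow were positive for 28 of the 53 and 50.4% of all genes tested, while Amy1 was negative. These shares of all genes are also the background for the single lists below, whose signs were not tested. No difference between Amy1 and these lists was tested.

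Most genes of the digestive list had few counts in ventricle. Of its 12 genes, 8 had a row and 3 were tested. Mgam, the maltase-glucoamylase of the gut brush border, had 54 counts in all 16 libraries together, and Lct, the lactase gene, had 12. The intestinal sugar transporters Slc5a1, Slc2a2 and Slc2a5 had 102, 16 and 17 counts. The 3 tested members, Gaa, Ganab and Ganc, encode alpha-glucosidases that act inside cells.

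Gaa, the lysosomal acid alpha-glucosidase that frees glucose from glycogen, was at 102, 175, 148 and 139 CPM on UW, against 111, 87.4, 88.7 and 81.1 CPM on NIA. NIA replicate 1 lay above UW replicate 1, so the groups overlapped. The log2 difference was 0.61 ± 0.26 (SE) with an edgeR adjusted p of 0.300. Ganab, a catalytic subunit of the glucosidase that trims glycoproteins in the endoplasmic reticulum, differed by 0.32 ± 0.21 between UW and NIA, with an edgeR adjusted p of 0.543. That difference was 0.19 without NIA replicate 4, 0.48 without NIA replicate 2, 0.05 without NIA replicates 1 and 4, and 0.06 by limma.

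In glycogen breakdown, 17 of 18 listed genes were tested, and 14 were positive and 3 negative for UW against NIA, with a median of 0.40. For the formulas against chow the list had 9 positive and 8 negative members and a median of 0.02. Pygl, the liver-type glycogen phosphorylase, was at 5.49, 6.72, 5.84 and 7.12 CPM on UW, against 5.03, 4.34, 3.85 and 2.13 CPM on NIA. These animals did not overlap, as for 6.35% of all tested genes between these diets. Pygl was named for its small p, so nothing is read from that split. Its log2 difference of 0.64 ± 0.26 had an edgeR adjusted p of 0.270. Phka1, a regulatory subunit of phosphorylase kinase, which switches glycogen phosphorylase on, differed by 0.67 ± 0.27 between UW and NIA, with an edgeR adjusted p of 0.276. Its range was 38.9 to 95.5 CPM on UW and 31.3 to 65.8 CPM on NIA, with overlap.

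In glycogen synthesis, 18 of 22 listed genes were tested. Of these, 16 were positive for the formulas against chow, at a median of 0.21, beside 50.4% of all genes tested. Ppp1r3a, the glycogen-targeting subunit of protein phosphatase 1 in striated muscle, differed by 0.76 ± 0.47 in that comparison, with an edgeR adjusted p of 0.938. Its difference was 0.44 without chow replicate 3, 0.43 without NIA replicates 1 and 4, 0.34 by limma and 0.22 when mNIA replicate 2, NIA replicates 1 and 4 and chow replicate 3 were left out together. Gsk3b, the kinase that inhibits glycogen synthase, was at 139, 160, 201 and 186 CPM on UW, against 819, 140, 231 and 908 CPM on NIA. The high values were those of NIA replicates 1 and 4, the libraries with the high share of A or T runs, and the other NIA animals overlapped UW. The log2 difference was −1.61 ± 0.47 with an edgeR adjusted p of 0.172, and −0.09 without those libraries (edgeR adjusted p = 0.914).

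In glucose uptake and its first steps, all 16 listed genes were tested. For UW against NIA 13 were positive, at a median of 0.19, and for the formulas against chow 13 were negative, at a median of −0.12. Slc2a1, the glucose transporter GLUT1, was at 10.7, 11.7, 11.4 and 11.6 CPM on mNIA, against 14.1, 21.4, 17.3 and 15.6 CPM on UW. The animals did not overlap, as for 1.43% of all tested genes between these diets. Slc2a1 was named for its small p, so nothing is read from that split. Its log2 difference of −0.58 ± 0.20 had an edgeR adjusted p of 0.99999. Txnip, a protein that limits glucose uptake, was at 860, 601, 705 and 480 CPM on mNIA, against 481, 489, 343 and 220 CPM on NIA. The groups overlapped at mNIA replicate 4, and the log2 difference was 0.79 ± 0.29 with an edgeR adjusted p of 0.549.

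**Figure D4:**
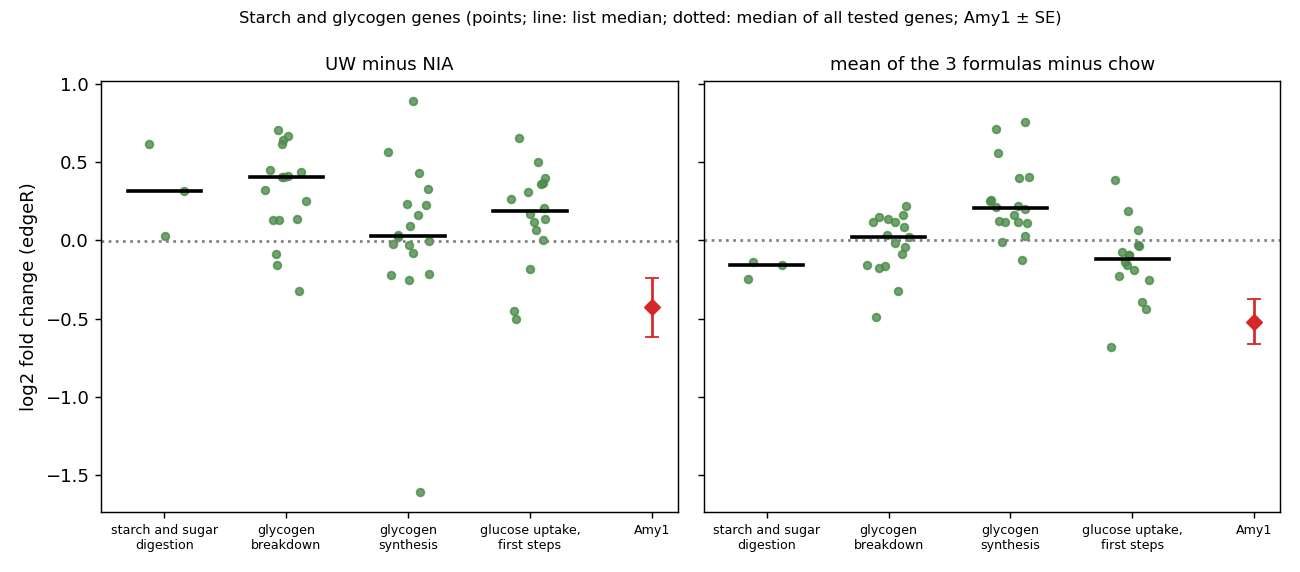
Log2 fold changes of starch and glycogen genes for UW minus NIA (left) and for the mean of the 3 formulas minus chow (right), by list; points are genes, black lines are list medians, the dotted line is the median of all tested genes, and the red diamond is Amy1 ± SE. Amy1 lies at −0.43 on the left and −0.52 on the right, and the glycogen breakdown list has a median of 0.40 on the left.

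The genes whose pattern was most like that of Amy1 were ranked by the Spearman correlation of log2 CPM over the 16 libraries, among 12517 genes with a mean of at least 1 CPM. The libraries share their diets, depth and scaling with Amy1, so these values are a description with no p. This correlation exceeded 0.5 for 2.14% of the genes. The highest values were those of Kbtbd8 at 0.86, Gsta1 at 0.83, Slc35b1 at 0.80, Emc9 at 0.77, Taz at 0.75 and Pfkfb1 at 0.75. Their Pearson's r was 0.49, 0.72, 0.67, 0.72, 0.51 and 0.71 in the same order, and 3 of the 6 were also among the 6 highest by Pearson's r. Without UW replicate 1 and chow replicate 1, the animals farthest from the median of Amy1, the 6 Spearman values lay between 0.71 and 0.83.

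Gsta1, a glutathione S-transferase with close relatives among which reads may be split, was at 1.69 to 2.81 CPM on mNIA, 1.61 to 3.12 on UW, 3.76 to 11.4 on NIA and 4.01 to 7.26 on chow. Every mNIA and UW animal thus lay below every NIA and chow animal, a split that Amy1 did not show. Gsta1 was picked by its likeness to Amy1 over these same libraries. The share of all genes with this split was not computed, so nothing is read from it. Slc35b1, a transporter that brings ATP into the endoplasmic reticulum, was at 18.9 to 27.1 CPM on mNIA, 21.0 to 22.8 on UW, 24.3 to 36.3 on NIA and 27.4 to 30.6 on chow. Emc9, a subunit of the membrane protein insertion complex of the endoplasmic reticulum, was at 15.5 to 26.1 CPM on mNIA, 16.5 to 23.2 on UW, 22.2 to 34.1 on NIA and 26.9 to 32.6 on chow. Both had their chow animals above all UW animals, as Amy1 and 2.48% of all tested genes did. Both were picked by their likeness to Amy1 over these same libraries, so nothing is read from this split.

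Pfkfb1, an enzyme that sets the level of the glycolytic activator fructose 2,6-bisphosphate, was at 18.3 to 25.8 CPM on mNIA, 18.2 to 25.9 on UW, 25.9 to 37.0 on NIA and 24.8 to 31.3 on chow. It was the gene of the glucose list closest to Amy1 in pattern. Taz, at the X chromosome position of tafazzin, the enzyme that remodels the mitochondrial lipid cardiolipin, averaged 40.5 ± 4.49 CPM on mNIA, 40.4 ± 2.55 on UW, 50.8 ± 17.5 on NIA and 51.7 ± 3.31 on chow. Kbtbd8, an adaptor of a ubiquitin ligase, averaged only 1.74 CPM over all libraries, so its ranks rest on few counts.

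The genes with the lowest Spearman correlation were Arfip1 at −0.83, Ccdc15 at −0.78 and Cggbp1 at −0.73. Their Pearson's r was −0.65, −0.43 and −0.75 in the same order, and 1 of the 3, Cggbp1, was also among the 3 lowest by Pearson's r. Ccdc15 averaged only 1.74 CPM over all libraries and was at 0 CPM in NIA replicate 4, so its ranks rest on few counts. Arfip1, which binds small GTPases of the ARF family, was at 22.9 to 25.1 CPM on mNIA, 22.6 to 24.7 on UW, 17.8 to 26.5 on NIA and 19.9 to 21.9 on chow. Its chow animals lay below all mNIA and UW animals, the opposite of Amy1. The gene was picked by its correlation with Amy1 over these same libraries, so nothing is read from this split. Cggbp1, a protein that binds CGG repeats in DNA, averaged 48.96 ± 1.92 CPM on mNIA, 52.1 ± 5.86 on UW, 44.0 ± 5.87 on NIA and 40.9 ± 4.23 on chow.

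After the diet means were taken out, the list changed. The highest Spearman correlations of deviations within diets were those of Ptpn2 at 0.79, Harbi1 at 0.76, Cdh4 at 0.76, Dpp9 at 0.74, Dnaja1 at 0.74 and Tapt1 at 0.72. Of the 6 genes highest over all libraries, 0 were among these 6. The genes highest over all libraries had lower correlations within diets. These were 0.68 for Kbtbd8, 0.60 for Gsta1, 0.51 for Slc35b1, 0.38 for Emc9, 0.43 for Taz and 0.49 for Pfkfb1. The choice of these genes used the same libraries, and no background within diets was computed, so nothing is read from their sign. Ptpn2, a tyrosine phosphatase that acts on JAK and STAT signalling, had a Spearman correlation of −0.14 over all libraries, and Dnaja1, a co-chaperone of Hsp70, had −0.15. Harbi1, derived from a transposase, had 0.59 over all libraries, and 0.46 without UW replicate 1 and chow replicate 1.

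**Figure D5:**
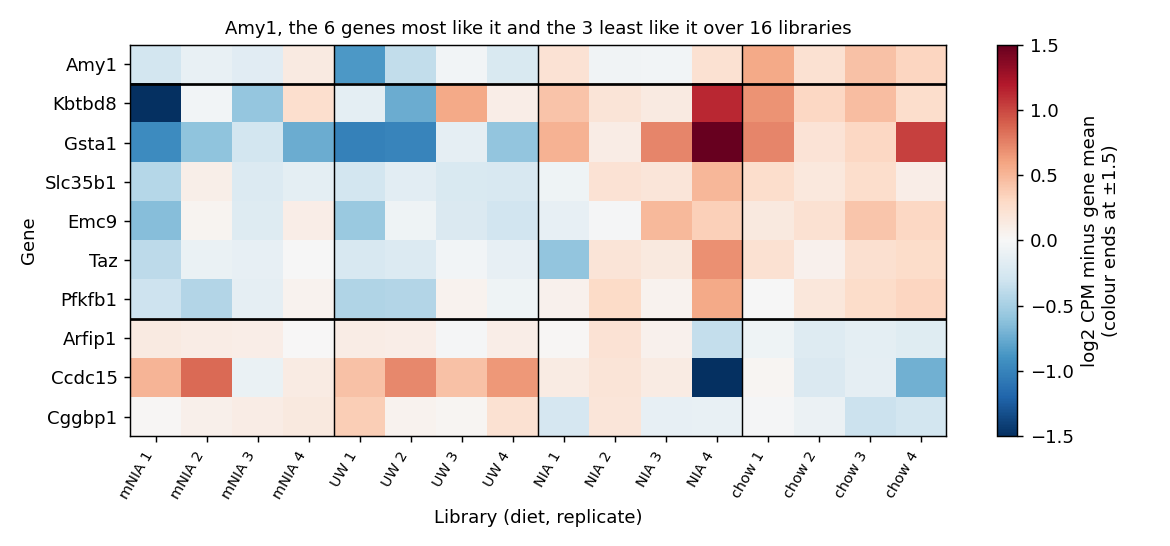
Log2 CPM of Amy1, the 6 genes most like it and the 3 least like it, each minus its own mean, over the 16 libraries in the order mNIA, UW, NIA and chow; red is above the gene's mean and blue below, with colours ending at ±1.5. Gsta1 is below its mean in all mNIA and UW libraries and above it in all NIA and chow libraries. The genes beside Amy1 were picked by their correlation with it over these same libraries, so nothing is read from this pattern.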

How the data were processed

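Ventricle RNA of 16 mice was sequenced, and the authors deposited expected counts per gene without scaling: 13.0% to 52.4% of a library's values are not whole. BWA, DESeq2 and mm10 are named per the submitters' processing notes, without versions; the counting tool is not given in the sources used here. No row sums to fewer than 10. Library totals ranged from 2278223 to 6583503 counts, apart from 63005361 in NIA replicate 2.

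The expected counts were rounded. Genes were kept by filterByExpr (13381, 75.4%), scaled by TMM and fitted with edgeR 4.0.16 in R 4.3.3 by quasi-likelihood with 1 mean per diet, all 16 libraries and no covariate. Tests were 2-sided with Benjamini-Hochberg adjustment over all genes tested and a threshold of 0.05. Log2 CPM used a prior count of 2. The procedure was tested on simulated counts. Intervals on single libraries are exact Poisson intervals and cover counting error only.

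Amy1, the gene lists, the 13 marker lists and the tests were chosen with earlier results of these data known. Named genes were the amylases, up to 3 neighbouring rows on each side, 2 genes per list with the smallest p in any comparison, and the genes most and least like Amy1 in pattern (6 and 3 over libraries, 6 within diets, clone names left out). Marker lists not named in the report held fibroblast, endothelial, leucocyte, smooth muscle, adipocyte, red cell, atrial and neural genes, and their summed levels overlapped in every pair of formulas and against chow. Alternatives used other scalings, filters, unrounded values, DESeq2 1.42.0, limma 3.58.1 with voom, a replicate block, fits of 2 diets only and fits without each library. Alternatives chosen after seeing the data left out libraries, used library totals alone or summed the amylase rows. The salivary gland list was shortened by 1 marker, which is not reported here. Whether replicate numbers pair the animals was not settled, and the main fit did not use them. Transcripts came from GENCODE vM21 and promoters from RefSeq on GRCm38.p6.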

Additional observations from a re-analysis of the deposited data

How the results depend on the processing

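Between the pairs of formulas, Amy1 kept its direction in each of the 29 alternatives per pair. Against chow, the choice of the gene favoured a negative direction from the start, so nothing is read from its sign there. The alternatives against chow, 29 per formula and 28 for the mean of the 3 formulas, are given as ranges only. The UW against NIA difference ranged from −0.54 to −0.19 with adjusted p from 0.169 to 0.678, mNIA against NIA from −0.26 to −0.03 (0.637 to 0.992) and mNIA against UW from 0.11 to 0.37 (0.730 to 1). DESeq2 gave no adjusted p for Amy1 in mNIA against NIA. The untested formulas against chow difference ranged from −0.67 to −0.46, with UW against chow from −0.86 to −0.60, mNIA against chow from −0.63 to −0.43 and NIA against chow from −0.60 (library totals alone) to −0.26. The UW against NIA value was −0.26 by limma with voom, −0.29 without the 4 libraries of low quality weight (mNIA replicate 2, NIA replicates 1 and 4 and chow replicate 3), and −0.36 with the amylase rows summed.

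Counts of called genes also moved with the processing. Against 0 by edgeR for every comparison, limma with voom called 4 of all genes for the formulas against chow, 2001 for mNIA against NIA, 1 for mNIA against UW and 954 for UW against NIA, and DESeq2 called 1 for mNIA against UW and 327 for UW against NIA. Without the 4 libraries of low weight, edgeR called 3184 for mNIA against NIA and 1627 for UW against NIA. Leaving out 1 library gave 0 to 217 for UW against NIA (217 without NIA replicate 2, and 1 without UW replicate 3) and 0 to 1 for mNIA against UW (1 without UW replicate 3). Among starch and glycogen genes, limma called 13 for mNIA against NIA and 8 for UW against NIA, beside 15% and 7.13% of all genes. DESeq2 called 1 for UW against NIA, beside 3.36% of genes given an adjusted p. Without the 4 libraries edgeR called 25 for mNIA against NIA and 14 for UW against NIA, beside 3184 and 1627 of all genes. Shares were not computed for that fit, so nothing is read from these counts of members. Leaving out 1 library gave 0 to 1 for UW against NIA (1 without NIA replicate 2). The cause was not tested. For UW against NIA, Gaa passed by limma (adjusted p = 0.037) and without the 4 libraries (0.0193), Phka1 by limma (0.0332) and without the 4 libraries (0.0439), Pygl by limma (0.0414), and Gsk3b by DESeq2 (0.0207) and without NIA replicate 2 (0.0237).

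With the replicate number as a block, Amy1 was −0.44 for UW against NIA (edgeR adjusted p = 0.421), −0.19 for mNIA against NIA (0.860), 0.26 for mNIA against UW (0.99986) and −0.52 for the formulas against chow, and no count of calls moved. Deviations of same-numbered animals correlated between −0.58 and 0.61. A range this wide, from 4 animals per diet, does not show whether the numbers pair the samples. Depth limits NIA replicate 4 most, with 40 Amy1 counts.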
